A study of Mus musculus with 57 samples.

Results

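The proteasome is built from subunits whose mouse genes share the prefix Psm, and the liver mRNA of these genes was followed here in mice given 1 of 7 hepatotoxic compounds. The members were taken by name: 54 of the 54307 genes in the table carry a symbol made of Psm, a letter from a to g and a number. After 4 pseudogenes were left out, 50 genes remained. They were 5 genes of the immunoproteasome (Psmb8, Psmb9, Psmb10, Psme1 and Psme2), 44 other proteasome genes, and Psmc3ip, which matched the name pattern but is not a proteasome subunit and is kept apart. The rule goes by symbol alone, though the family was picked with earlier results of these data known.

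The proteasome is the main protease of the cytosol and nucleus. Its barrel, the 20S core, is closed at both ends by rings of alpha subunits (Psma genes) and holds the proteolytic sites on rings of beta subunits (Psmb genes). The 19S cap, made of ATPases (Psmc genes) and further subunits (Psmd genes), binds and unfolds ubiquitin-tagged proteins. Interferon gamma induces Psmb8, Psmb9 and Psmb10, which take the place of the constitutive catalytic subunits Psmb5, Psmb6 and Psmb7 and alter which peptides are made for MHC class I molecules, and it also induces the cap subunits Psme1 and Psme2 (PA28 alpha and beta). In the liver, hepatocytes carry mostly the constitutive form, while immune cells are rich in the immunoproteasome.

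RNA-seq of perfused liver was available for 57 male wild-type C57BL/6JJcl mice, aged 6 weeks and acclimatised for 1 week, which were fasted for 12 h, dosed once and examined at 24 h. By gavage, mice received alpha-naphthyl isothiocyanate (ANIT, n = 4), acetaminophen (APAP, n = 6), 4,4'-methylene dianiline (MDA, n = 7) or thioacetamide (TAA, n = 5), and 13 control mice received 0.5% methylcellulose (Ctrl). By intraperitoneal injection they received CCl4 (n = 7) or galactosamine (GAL, n = 4), with 2 mice given 0.9% saline as controls (CIP). Concanavalin A (ConA, n = 7), a lectin that activates T cells, was given intravenously, with 2 saline mice as controls (CIV). The sources name corn oil as a further vehicle without saying for which compound, and no control group had it, so an effect of that vehicle cannot be told apart from the compound it carried. Doses of the compounds are not given in the sources used here.

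Each compound was compared with the vehicle of its route, and a gene was called when its edgeR quasi-likelihood p, adjusted by the Benjamini-Hochberg method over all genes tested, was under 0.05. ANIT, APAP, MDA and TAA share their 13 control mice, and CCl4 and GAL share 2, so results within each set are not independent. Because CIP and CIV held 2 mice each, fits against all 17 vehicle mice are given beside the route-matched ones. Levels are in CPM, which are the estimated counts of a gene relative to the library total, with TMM scaling over the 57 mice. Those estimates appear to be corrected for transcript length, which allows levels to be set side by side between genes.

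The upstream sequence is shown for both subunits of 2 catalytic pairs, because these constitutive and interferon-inducible partners moved in opposite directions with ANIT and MDA. Sequences are from RefSeq, on GRCm38.p6, and each is the 250 bases before the annotated start of the gene, printed 5′ to 3′ on the strand of the gene. Psmb5 lies on the minus strand with its window at chr14:54617996-54618245, and Psmb6 lies on the plus strand with its window at chr11:70525107-70525356. Psmb8 has its window at chr17:34197945-34198194 on the plus strand, and Psmb9 at chr17:34187331-34187580 on the minus strand. Capitals mark a match to the antioxidant response element (TGACNNNGC) in Psmb5 and Psmb6 and to the gamma-activated sequence (TTCNNNGAA) in Psmb8; Psmb9 held no match to either or to the third motif searched, the interferon-stimulated response element (GAAA, any 2 bases, GAAA).
Psmb5: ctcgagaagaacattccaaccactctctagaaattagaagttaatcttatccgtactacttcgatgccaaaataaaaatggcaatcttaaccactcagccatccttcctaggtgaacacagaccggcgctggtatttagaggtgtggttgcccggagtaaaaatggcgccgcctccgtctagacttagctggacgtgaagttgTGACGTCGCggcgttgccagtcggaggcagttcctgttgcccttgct
Psmb6: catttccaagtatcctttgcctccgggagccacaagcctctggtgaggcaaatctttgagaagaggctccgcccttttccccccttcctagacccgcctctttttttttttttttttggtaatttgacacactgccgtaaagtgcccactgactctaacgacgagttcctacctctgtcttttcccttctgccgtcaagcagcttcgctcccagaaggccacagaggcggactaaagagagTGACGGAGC
Psmb8: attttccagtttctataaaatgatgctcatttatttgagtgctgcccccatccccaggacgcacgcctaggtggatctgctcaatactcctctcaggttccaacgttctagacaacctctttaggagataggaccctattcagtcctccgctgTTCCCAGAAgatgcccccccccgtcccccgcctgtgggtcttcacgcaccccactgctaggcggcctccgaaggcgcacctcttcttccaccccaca
Psmb9: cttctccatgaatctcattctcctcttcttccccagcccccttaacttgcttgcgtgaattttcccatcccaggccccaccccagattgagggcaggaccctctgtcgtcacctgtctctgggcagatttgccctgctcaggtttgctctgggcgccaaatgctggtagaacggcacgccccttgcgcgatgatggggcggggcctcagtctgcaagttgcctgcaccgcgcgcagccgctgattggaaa

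The match in Psmb5 began 47 bases before the start, that in Psmb6 began 9 bases before it, and that in Psmb8 began 97 bases before it. All motifs were searched on both strands of the 250-base windows, which were found for 42 of the 50 genes, 5 of them immunoproteasome genes and 36 other proteasome genes. The antioxidant response element was matched in 5 of those 36 windows (13.9%: Psmb5, Psmb6, Psmc6, Psmd9 and Psmd12) and in 10.2% of 32851 windows of all genes. The gamma-activated sequence was matched in Psmb8 among the 5 immunoproteasome genes, in Psmg1 among the 36 others (2.78%) and in 7.02% of all windows. For the interferon-stimulated response element, matches lay in Psmb3, Psmd4 and Psmd9 (8.33% of 36), in no immunoproteasome gene and in 2.98% of all windows. A match describes the letters of a window and says nothing of binding.

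In the 17 vehicle mice the 3 most abundant members were genes of the beta ring. Psmb6, the constitutive caspase-like subunit, stood highest with a mean level of 211 ± 36 CPM (SD, n = 17), next to Psmb4 at 200 ± 37.5 CPM, and these neighbours overlapped. Psmb3 followed at 157 CPM, then the PA28 genes Psme1 at 147 ± 26.8 and Psme2 at 138 ± 23.0 CPM, and Psmb5, the chymotrypsin-like subunit, at 136 ± 33.3 CPM, all within each other's spread. Psmb7, the trypsin-like subunit, was at 107 ± 18.2 CPM.

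The inducible catalytic subunits were less abundant than the constitutive ones they can replace. Psmb10 was at 45.7 ± 15.2 CPM, Psmb8 at 38.1 ± 10.0 CPM and Psmb9 at 19.5 ± 6.28 CPM. Of the members found in every vehicle mouse at more than trace level, the lowest was Psmd10 (gankyrin, a chaperone of 19S assembly) at 5.10 ± 1.05 CPM. Psme2b (a near-copy of Psme2, whose reads may be shared with it, so its values are uncertain) was at 0.808 CPM, and Psma8, the testis form of an alpha subunit, at 0.553 CPM. Psmb11, the thymus form of the catalytic subunit, was listed at 0 in all 17 vehicle mice and reached at most 0.126 CPM in any mouse. It passed the filter on low counts in no comparison, so 43 of the 44 other proteasome genes were tested. Without that filter 44 were tested with TAA and with GAL. Psmc3ip, at 0.345 CPM in the vehicles, was tested with ANIT, APAP, CCl4 and GAL and called with none of them against the route vehicle; against all 17 vehicles it was called higher with CCl4 (1.23, adjusted p = 0.022).

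Library totals ran from 13826343 to 35075809 estimated counts, and TMM factors from 0.471 in a ConA mouse to 1.82 in a GAL mouse. The share of counts from mitochondrial genes ran from 5.11% to 39.3%, with the highest share in a ConA mouse. Apart from ConA mouse 12 (14.6%, TMM factor 1.00), ConA mice had shares of 19.1% to 39.3% and TMM factors of 0.471 to 0.732. Ctrl mice had 7.48% to 21.8%, and the CIV mice 6.79% and 25.4%. The part of this shift in the ConA results was not tested. Among the controls, CIP against Ctrl and CIV against Ctrl called 0 of the 43 other and 0 of the 5 immunoproteasome genes with edgeR, at backgrounds of 0.0131% and 0.0263% of all genes called; at an unadjusted p under 0.05, 0 and 3 of the 43 passed, and DESeq2 called 0 in both. The 13 Ctrl mice were not uniform. Those numbered 1 to 4 differed from those with higher numbers in 2.33% of all genes, with 1.73% lower in mice 1 to 4, and Psmb9 was one of those.

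Psmb9 levels were 14.6, 8.59, 14.7 and 9.63 CPM in Ctrl mice 1 to 4 and ran from 16.1 to 24.8 CPM in the other 9, without overlap. The log2 fold change was -0.73 ± 0.16 (SE, adjusted p = 0.032), and for Psmb8 it was -0.57 (adjusted p = 0.089). Of 13 other interferon and antigen-presentation genes tested there, 4 were called lower and 0 higher, among them Gbp2 (-1.39, adjusted p = 0.024), Nlrc5 (-1.26, 0.043) and Tap1 (-0.76, 0.021). Kupffer cell genes were also lower there in 4 of 6, monocyte genes in 2 of 5, pan-leukocyte genes in 2 of 5 and T and NK cell genes in 1 of 5, and their part in the Psmb9 difference was not tested. Immunoproteasome results against Ctrl are therefore also given within each range of numbers. What the ranges stand for is not given in the labels.

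Immunoproteasome mRNA was lower with the 4 compounds given by gavage and far higher with ConA. Of the 5 genes, 4 fell with ANIT and all 5 fell with APAP, MDA and TAA, where 14.2%, 14.6%, 16.4% and 24% of all genes tested were called lower. With CCl4 and GAL the 2 PA28 genes were called lower (backgrounds 15.6% and 15.7%), and with ConA the 3 catalytic genes were called higher (background 16.8%). Against all 17 vehicle mice, all 5 were called lower with ANIT (background 14.5%), APAP (15.3%), MDA (17.1%), TAA (24.5%), CCl4 (27.2%) and GAL (27.5%), and all 5 higher with ConA (34.3%).

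**Figure D1:**
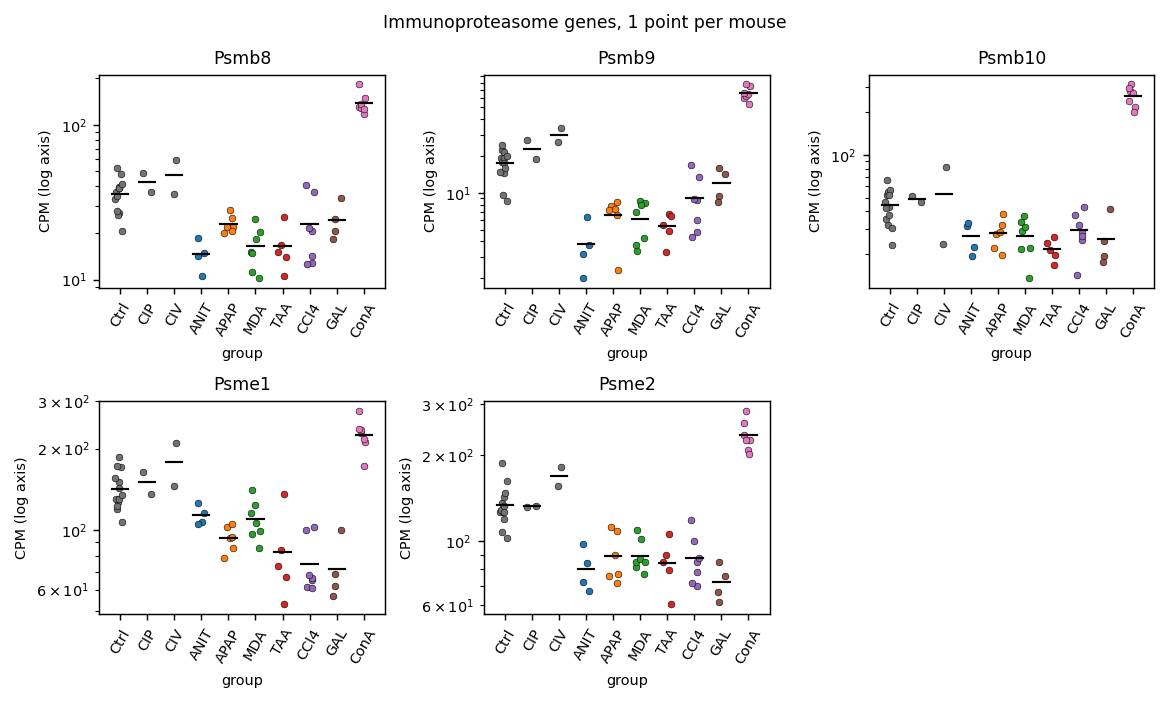
Levels of the 5 immunoproteasome genes by group; the vertical axis is CPM on a log axis, each point is 1 mouse and each bar is the group mean. ConA mice stand above the vehicle mice (grey) in every panel, apart from 1 mouse for Psme1, and most mice given another compound stand low among the vehicles or beneath them.

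Psmb9, the inducible partner of Psmb6, fell furthest of the 5 with each of the 4 compounds given by gavage. In Ctrl mice its level ran from 8.59 CPM through a median of 17.8 to 24.8 CPM. The 4 ANIT mice had 6.34, 3.19, 2.01 and 3.76 CPM, all under the lowest control. The log2 fold change was -2.20 ± 0.30 (SE, adjusted p = 5.5e-05).

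The TAA mice had 6.76, 3.31, 4.91, 6.49 and 5.49 CPM of Psmb9, again under every control, with a log2 fold change of -1.64 ± 0.24 (adjusted p = 1e-05). APAP mice ran from 2.36 through 7.32 to 8.42 CPM (-1.35 ± 0.24, adjusted p = 0.00027), and all 6 were under the lowest control. MDA mice ran from 3.34 through 6.98 to 8.63 CPM (-1.49 ± 0.23, adjusted p = 3.8e-05), and 6 of 7 were under it. The gene thus separated 21 of 22 mice dosed by gavage from all of their controls.

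Psmb8, the inducible chymotrypsin-like subunit, ran from 20.6 through 36.8 to 52.5 CPM in Ctrl. ANIT mice had 10.5, 18.5, 14.3 and 14.9 CPM, all under the controls (-1.31 ± 0.22, adjusted p = 0.00029). MDA mice ran from 10.2 through 15.0 to 24.5 CPM, with 6 of 7 under the controls (-1.13 ± 0.19, adjusted p = 0.00011). TAA mice had 25.4, 16.7, 10.6, 14 and 15.1 CPM, where TAA mouse 1 lay within the control range (-1.08 ± 0.22, adjusted p = 0.00041). The fall with APAP was smaller, at 20.1 through 21.8 to 28.0 CPM (-0.62 ± 0.16, adjusted p = 0.0069), and 2 of 6 mice lay under the controls.

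Psmb10, the inducible trypsin-like subunit, overlapped its controls more. Its Ctrl levels ran from 23.2 through 42.7 to 66.4 CPM, and the 4 ANIT mice had 19.5, 31.8, 33.2 and 22.5 CPM (-0.72 ± 0.23, adjusted p = 0.027). Without ANIT mouse 1 or 4 the adjusted p was 0.093 or 0.088. The falls were 0.62 (APAP), 0.70 (MDA) and 0.97 (TAA) on the log2 scale, and without APAP mouse 8 or 11 the APAP call was lost (adjusted p = 0.058 and 0.054).

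Psme1 and Psme2, the subunits of the PA28 cap that opens the core, fell from higher levels. With APAP, MDA and TAA they fell by less on the log2 scale than the inducible catalytic genes. With ANIT Psme2 fell about as far as Psmb10, and with CCl4 and GAL that order did not hold. Psme2 ran from 103 through 128 to 188 CPM in Ctrl and was 84.0, 98.2, 72.3 and 67.1 CPM in ANIT mice, all under the controls (-0.74 ± 0.14, adjusted p = 0.00089). It was called lower with all 6 chemical toxicants, by 0.56 (APAP), 0.58 (MDA), 0.62 (TAA), 0.57 (CCl4) and 0.88 (GAL). Psme1 fell by 0.58 with APAP, 0.37 with MDA and 0.72 with TAA, and with ANIT its log2 fold change was -0.33 (adjusted p = 0.066).

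The CCl4 and GAL results rest on 2 saline mice and on the scaling. Psme1 was 136 and 164 CPM in CIP, 60.8 through 66.3 to 102 CPM in CCl4 mice (-0.97 ± 0.22, adjusted p = 0.0082) and 99.8, 68.8, 61.8 and 56.7 CPM in GAL mice (-1.06 ± 0.24, adjusted p = 0.021). All 11 treated mice were thus under both CIP mice and under all 17 vehicles. The catalytic genes were not called by edgeR against CIP: Psmb9 had log2 fold changes of -1.30 (CCl4, adjusted p = 0.054) and -0.92 (GAL, adjusted p = 0.07), Psmb8 of -0.87 and -0.82, and Psmb10 of -0.69 and -0.93. DESeq2 called Psmb9 with CCl4 (-1.36, adjusted p = 0.015) and all 3 with GAL: Psmb8 (-0.84, 0.025), Psmb9 (-0.93, 0.032) and Psmb10 (-0.94, 0.042). In 1 edgeR fit over the 57 mice, Psmb8 (-0.92, adjusted p = 0.032) and Psmb9 (-1.34, 0.0064) were called lower with CCl4.

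When libraries were scaled to their totals instead of by TMM, none of the 5 genes was called with CCl4 or GAL. The median of all genes then moved to 0.53 with CCl4 and 0.84 with GAL, and Psme1 was at -0.52 and -0.28. Leaving out CIP mouse 8 ended the Psme1 call with CCl4 (adjusted p = 0.094) and with GAL (0.121), and the GAL call was also lost without CIP mouse 7 (0.081) or without GAL mouse 4 (0.059), 7 (0.0502) or 8 (0.0555). The Psme2 call was lost without either CIP mouse for both compounds, without GAL mouse 8, and without CCl4 mouse 1, 5, 6, 8 or 10. Without GAL mouse 2, Psmb8 (-1.01, adjusted p = 0.011) and Psmb10 (-1.25, adjusted p = 0.0047) were called lower with GAL, and without CCl4 mouse 5 or 11 Psmb9 was called lower with CCl4 (adjusted p = 0.046 and 0.016).

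The gavage compounds were also fitted within the 2 ranges of mouse numbers, and the difference between the ranges was not tested. The range 1 to 4 held 4 ANIT, 4 MDA, 3 APAP and 2 TAA mice. In that range alone, Psmb9 was at -1.66 with ANIT (adjusted p = 0.017) and -1.39 with MDA (0.016), while with APAP it was at -0.97 (0.2) and with TAA at -1.22 (0.071). Psmb8 there was at -0.90 with ANIT (0.025), -1.07 with MDA (0.013), -0.11 with APAP (0.8) and -0.31 with TAA (0.45). Of the 5 immunoproteasome genes, 3 were called lower with ANIT and 2 with MDA in that range, and none was called with APAP or TAA. In mice with higher numbers, Psmb9 was at -1.38 with APAP (0.00022), -1.26 with MDA (9.4e-05) and -1.78 with TAA (2.2e-06). There all 5 genes were called lower with APAP and TAA, and 3 with MDA. With the range as a term in the fit, every immunoproteasome call of these 4 compounds was kept except Psmb10 with ANIT (-0.44, adjusted p = 0.26). With library totals, the 5 genes were called lower with ANIT, MDA and TAA, but with APAP only Psmb9 was (-1.16, adjusted p = 0.0085).

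ConA raised the inducible catalytic subunits above every vehicle mouse. Psmb10 was 82.3 and 23.5 CPM in the 2 CIV mice and ran from 200 through 275 to 316 CPM in the 7 ConA mice (2.33 ± 0.45, adjusted p = 0.0031). Psmb8 was 59.0 and 35.6 CPM in CIV and ran from 118 through 131 to 183 CPM (1.6 ± 0.29, adjusted p = 0.0021). Psmb9 was 33.9 and 25.9 CPM and ran from 53.1 through 64.2 to 77.5 CPM (1.17 ± 0.22, adjusted p = 0.0029). In each of these genes all 7 ConA mice stood above all 17 vehicle mice.

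The PA28 genes differed less with ConA, and edgeR called them against all 17 vehicle mice but not against CIV. Psme2 was 181 and 156 CPM in CIV and 201 through 225 to 285 CPM with ConA, above every vehicle mouse, with a log2 fold change of 0.51 (adjusted p = 0.075) against CIV and 0.85 ± 0.10 (adjusted p = 2.9e-08) against all vehicles. Psme1 was at 0.38 (adjusted p = 0.24) and 0.71 ± 0.11 (2e-06), and 6 of 7 ConA mice stood above all vehicles. Against CIV, DESeq2 called Psme2 (0.48, adjusted p = 0.031) and not Psme1 (0.35, 0.25). With library totals the median of all genes lay at -0.56 and only Psmb10 was called (1.66, adjusted p = 0.026). Psmb8 was then at 0.96, Psmb9 at 0.54, Psme1 at -0.26 and Psme2 at -0.11, so the sign of the PA28 genes depends on the scaling.

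The contrast between ConA and the other compounds was tested in 1 fit over the 57 mice, as the ConA effect minus each other effect. Of the 5 immunoproteasome genes, 5 differed from APAP, TAA, CCl4 and GAL (with 4.73%, 3.12%, 6.69% and 7.84% of all genes called in that direction). For ANIT and MDA 4 differed (backgrounds 8.17% and 8.8%), and Psme1 missed the threshold at 0.66 (adjusted p = 0.091) and 0.70 (0.051). Psmb10 differed by 2.94 to 3.32 on the log2 scale over the 6 contrasts and gave the largest difference of the 5 genes in all but that with ANIT, where Psmb9 did (3.31). With library totals 3 genes were called against each gavage compound and 1, Psmb10, against CCl4 and GAL.

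The antigen-presentation and interferon genes fixed as a list of 14 showed a like split between compounds. With ConA 11 of 14 were called higher, where 16.8% of all genes were, among them the chemokine Cxcl9 (7.48), the transcription factor Irf1 (3.54), the peptide transporter Tap1 (3.08) and Nlrc5 (0.76), the activator of MHC class I genes. Interferon gamma itself (Ifng) was listed at 0 in both CIV mice and ran from 0.446 to 3.26 CPM in ConA mice. Of the 13 genes tested with the gavage compounds, 8 were called lower with ANIT, 6 with APAP, 7 with MDA and 9 with TAA (backgrounds 14.2%, 14.6%, 16.4% and 24%), and 1 was called higher with APAP, MDA and TAA each. Tap1 fell with all 4, by 1.85, 0.57, 1.01 and 1.42. All ANIT mice were numbered 1 to 4, and the median of the 13 genes with ANIT was -0.75. In Ctrl mice of that range, 4 of the 13 were lower than in other Ctrl mice, at a median of -0.68. Values of this list within the ranges are not given here, and the part of that difference in the ANIT falls was not tested. With CCl4 and GAL, 2 of 13 were called lower each, near the backgrounds of 15.6% and 15.7%, and Irf1 fell with CCl4 by 1.09.

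Cell markers measured in the same libraries moved in several groups, and their part in the results was not tested. In bulk RNA, fewer cells of a type and less RNA per cell cannot be told apart. In ConA mice 0 of 5 pan-leukocyte genes were called, with a summed level of 35.8 to 78.4 CPM against 35 to 108 CPM in the vehicles. All 6 Kupffer cell genes fell with ConA, to a summed 24.3 to 52.6 CPM from 157 to 470 CPM, and the dendritic cell gene Xcr1 was at 0 in all ConA mice. T and NK cell genes summed to 5.17 to 18.4 CPM with ConA and to 2.08 to 18.2 CPM in the vehicles, with 1 of 5 tested called higher. Neutrophil genes rose in 4 of 5, to a summed 127 to 289 CPM, and monocyte genes in 2 of 5, to 14.6 to 47.2 CPM against 3.56 to 39.8 CPM in the vehicles. Of 5 sinusoidal endothelial genes 1 was called higher and 3 lower, with sums of 55.8 to 108 CPM against 105 to 188 CPM.

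With the gavage compounds the leukocyte genes did not move in 1 direction. Pan-leukocyte genes summed to 39.3 to 57.1 CPM with ANIT (1 of 5 lower), to 36.6 to 94.3 CPM with MDA (0 of 5 called), to 69.4 to 152 CPM with APAP (2 of 5 higher) and to 92.9 to 165 CPM with TAA (4 of 5 higher). T and NK cell genes were called lower with ANIT (2 of 5 tested) and MDA (2 of 4), at backgrounds of 14.2% and 16.4%, and not with APAP (0 of 5). With TAA 1 of 6 was called lower (background 24%), while their median was 0.28 and 4 of 6 lay above 0. Neutrophil genes rose with TAA, 6 of 6, to a summed 160 to 824 CPM from 2.11 to 62.0 CPM in the vehicles, of which Ly6g was at 0 in every vehicle mouse. They were also called higher with APAP (3 of 4 tested, 13.3 to 263 CPM), MDA (2 of 4, 8.55 to 132 CPM), ANIT (1 of 4), GAL (4 of 5, 25.2 to 40.4 CPM) and CCl4 (2 of 5). Monocyte genes were called higher in 4 of 6 with APAP, TAA and GAL each, in 3 of 6 with CCl4 and in 1 of 6 with MDA, and 1 of 5 was called lower with ANIT. B cell genes were called lower with ANIT (2 of 3) and MDA (2 of 2) and higher with TAA (3 of 3). Of 6 Kupffer cell genes, 2 were called lower and 1 higher with ANIT, MDA, TAA and CCl4 each (medians -0.62, -0.57, -0.40 and -0.70), 1 lower and 1 higher with APAP (-0.18), and 0 lower and 2 higher with GAL (0.33). All ANIT mice were numbered 1 to 4, and their marker sums overlapped those of Ctrl mice 1 to 4. T and NK cell sums were 1.42 to 3.57 CPM with ANIT and 2.08 to 4.87 CPM in those Ctrl mice. Kupffer cell sums were 171 to 253 CPM and 157 to 204 CPM. Pan-leukocyte and B cell sums overlapped too. The part of the range of numbers in the ANIT marker calls was not tested. Of 5 sinusoidal endothelial genes, 4 were called lower with TAA, 2 with MDA and 1 with ANIT and APAP each, with 1 called higher with each of these 4 compounds, and 3 were called lower and 0 higher with CCl4. Of 7 hepatocyte genes, 3 were called lower and 1 higher with APAP and with TAA, 3 lower and 0 higher with MDA, and 1 lower and 0 higher with ANIT. With CCl4 and GAL all 7 hepatocyte genes fell, to summed levels of 19972 to 29797 CPM and 26835 to 35007 CPM against 53069 to 119671 CPM in the vehicles.

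Within each catalytic pair, the share held by the inducible subunit shifted in both directions. Psmb8 made up 21.9% ± 2.72 (SD, n = 17) of the summed Psmb8 and Psmb5 level in vehicle mice, with a range of 15.7% to 26.4%. In ConA mice it made up 54.2% ± 4.94 (n = 7, 47.7% to 60.6%), and in ANIT mice 6.05% ± 1.18 (n = 4). MDA (7.09%), TAA (8.77%), CCl4 (9.48%) and APAP (13.2%) lay between ANIT and the vehicles. The share is a ratio within each mouse, so it does not depend on the scaling of the library.

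Psmb9 made up 8.46% of its pair with Psmb6 in vehicle mice (4.86% to 14.6%), 1.23% with ANIT and 24.6% ± 3.85 with ConA (18.5% to 29.7%). Psmb10 made up 29.5% of its pair with Psmb7 in vehicle mice (16.0% to 38.7%), 16.5% with ANIT and 68.4% ± 3.25 with ConA (64.7% to 73.4%). Every ConA mouse lay above every vehicle mouse in all 3 shares. With GAL the shares were 20.2% ± 2.10, 8.70% ± 2.34 and 31.3% ± 4.92, and all 3 means lay inside the vehicle range. The other 5 chemical toxicants had means under that range for the Psmb8 and Psmb9 shares and inside it for the Psmb10 share (16.5% to 23.6%).

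**Figure D2:**
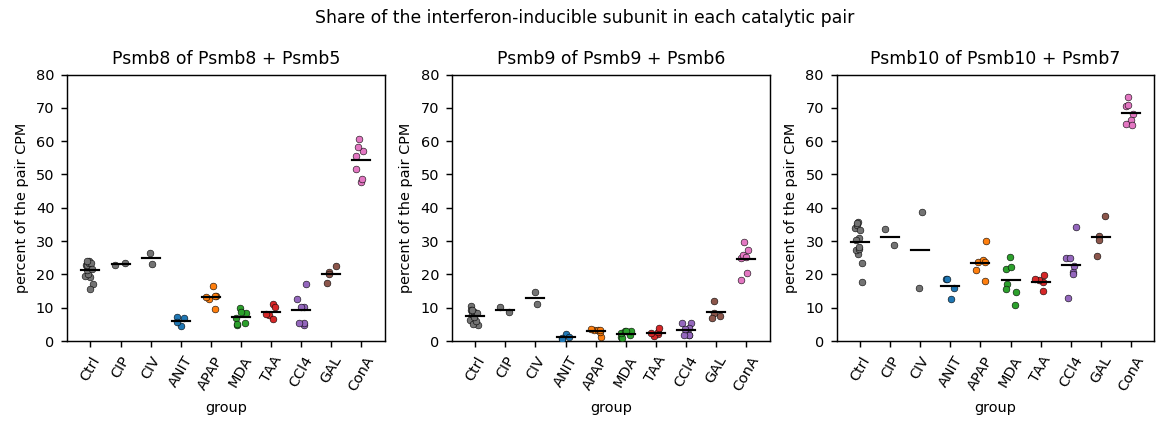
Percent of the summed CPM of each catalytic pair that belongs to the interferon-inducible subunit, 1 point per mouse with the group mean as a bar. ConA mice hold the highest shares in all 3 pairs (means 54.2%, 24.6% and 68.4%), ANIT mice the lowest means (6.05%, 1.23% and 16.5%), and GAL mice lie among the vehicles.

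Constitutive catalytic subunits moved against their inducible partners with ANIT (all 3) and MDA (Psmb5 and Psmb6). Psmb5 ran from 100 through 125 to 211 CPM in Ctrl and was 217, 239, 241 and 202 CPM in ANIT mice (0.75 ± 0.15, adjusted p = 0.0015), with 3 of the 4 above every control. It rose with MDA (176 through 210 to 289 CPM, 0.70 ± 0.13, adjusted p = 0.00035) and with CCl4 (0.65 ± 0.20, adjusted p = 0.035), where the call was lost without either CIP mouse or without CCl4 mouse 1, 6 or 8. Psmb6 rose with ANIT (0.63) and MDA (0.43), and Psmb7 with ANIT (0.37), a call lost without ANIT mouse 1, 2 or 3. With MDA, Psmb7 was at 0.21 (adjusted p = 0.12).

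GAL gave the opposite direction for these subunits. Psmb7 was 115 and 102 CPM in CIP and 69.1, 53.6, 44.2 and 50.8 CPM in GAL mice, all under both controls (-1.0 ± 0.20, adjusted p = 0.015). Psmb6 was at -0.76 (adjusted p = 0.051) and Psmb5 at -0.60 (adjusted p = 0.058) against CIP. Against all 17 vehicle mice all 7 constitutive beta genes were called lower with GAL (27.5% of all genes were). The Psmb7 call was lost without either CIP mouse or without GAL mouse 8, and with library totals no other proteasome gene was called lower with GAL.

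**Figure D3:**
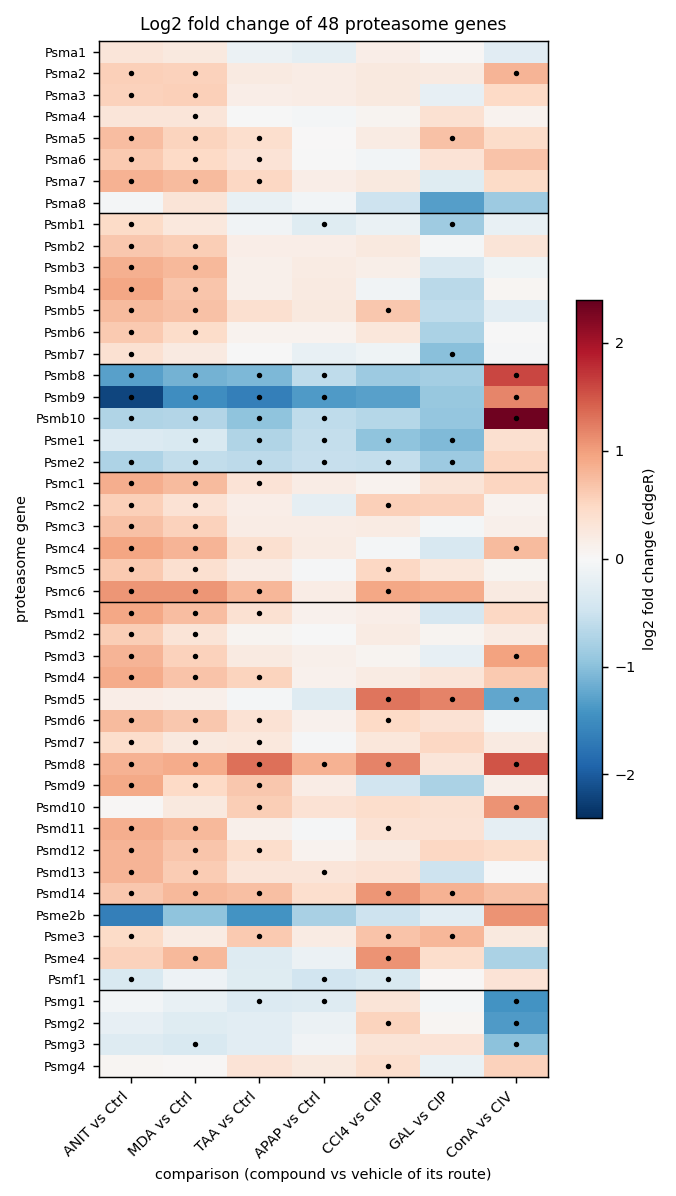
Log2 fold change (colour) of 48 proteasome genes against the vehicle of the route, 1 column per compound, with a dot where the gene was called (adjusted p under 0.05); lines separate alpha, constitutive beta, immunoproteasome, ATPase, non-ATPase, activator and chaperone genes. Most 20S and 19S genes are higher with ANIT and MDA, while the immunoproteasome block lies below 0 in the 6 chemical columns and above 0 with ConA.

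Apart from the immunoproteasome, most proteasome genes tested were higher with ANIT and MDA, though no assembly chaperone was called higher. ANIT raised 31 of 43 genes and lowered 1, with 14% and 14.2% of all genes called in those directions, and their median log2 fold change was 0.63 against -0.01 for all genes. MDA raised 30 and lowered 1 (backgrounds 17.4% and 16.4%), with medians of 0.53 and 0.03. Within the ranges of mouse numbers the MDA median was 0.64 (mice 1 to 4) and 0.32 (higher numbers). Against all 17 vehicle mice the counts were 31 and 0 (13.5% and 14.5%) with ANIT and 29 and 2 (17.2% and 17.1%) with MDA. With library totals they were 18 and 1 with ANIT (5.84% and 18.8%) and 23 and 1 with MDA (11.5% and 14.4%), while the median of all genes moved to -0.23 with ANIT.

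TAA raised 16 of 43 and lowered 1, against a background of 26.4% and 24% of all genes, and the median was 0.19 against 0.03. Without TAA mouse 1 the median was 0.10, and it was 0.43 in mice numbered 1 to 4 and 0.02 in those with higher numbers, where 7 and 8 genes were called higher. APAP raised 2 and lowered 3 (17.3% and 14.6%), with medians of 0.10 and 0.07. The APAP median of the 43 genes turned sign without APAP mouse 1 (-0.01) and in mice numbered above 4 (-0.06), and was 0.21 in mice numbered 1 to 4. CCl4 raised 13 and lowered 1 (18% and 15.6%), with medians of 0.23 and 0.10, but without CIP mouse 8 the counts were 3 and 0 and without CIP mouse 7 they were 8 and 0. The share of proteasome genes raised by TAA was thus nearer the background than with ANIT or MDA, and with APAP it was under the background.

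GAL raised 4 of 43 and lowered 2 (12.8% and 15.7%), with medians of 0.05 and 0.08, and ConA raised 5 and lowered 4 (16.8% and 17.3%), with medians of 0.20 and 0.03. Without CIP mouse 8 the GAL counts were 0 and 0 with a median of -0.07, and without GAL mouse 2 they were 6 and 8 with a median of -0.03. Without CIV mouse 8 the ConA counts were 3 and 2, and the median of the 43 genes was 0.05, under the 0.19 of all genes; without CIV mouse 7 the medians were 0.35 and 0.13. Against all 17 vehicles these became 11 and 12 for GAL (25.1% and 27.5%) and 28 and 4 for ConA (34.3% and 33.7%). The all-vehicle counts were 19 and 4 with CCl4 (26.2% and 27.2%), 15 and 2 with TAA (25.2% and 24.5%) and 2 and 4 with APAP (18.1% and 15.3%). Scaling changed these counts. With library totals the counts were 31 and 0 for CCl4 (29.7% and 7.16%), 22 and 0 for GAL (35.6% and 5.44%), 0 and 5 for ConA (7.79% and 26.5%), 3 and 1 for APAP (21.1% and 7.98%) and 13 and 0 for TAA (23.9% and 21%), but the median of all genes also moved, to 0.53, 0.84, -0.56, 0.22 and 0.04. The median of the 43 genes changed sign with ConA, from 0.20 to -0.40, and kept it with the other 6 compounds.

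**Figure D4:**
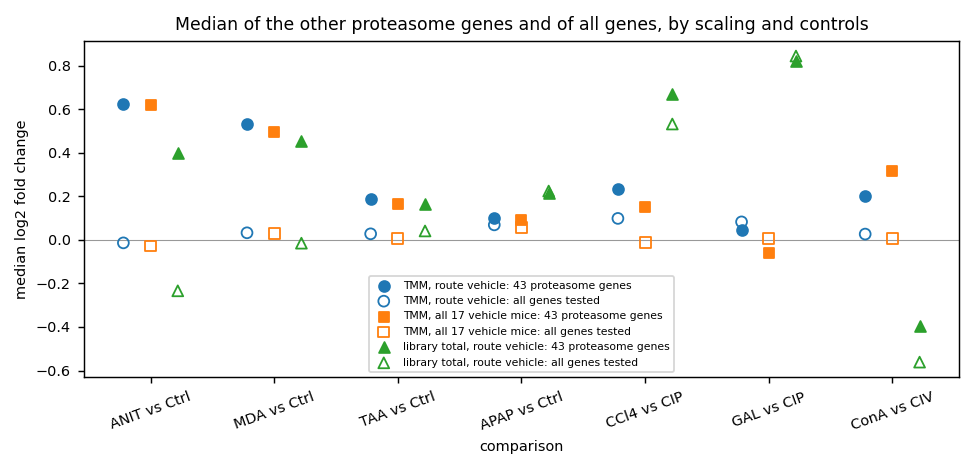
Median log2 fold change of the 43 other proteasome genes tested (filled) and of all genes tested (open) in each comparison, under TMM with the route vehicle, TMM with all 17 vehicle mice, and library totals. The filled marks stand well above the open ones with ANIT (0.63 against -0.01) and MDA (0.53 against 0.03) under each scaling, while with GAL both marks move together.

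The 20S alpha ring, which gates the core, rose with ANIT in 5 of 8 genes and with MDA in 6 of 8, with medians of 0.57 and 0.50 and backgrounds of 14% and 17.4%. TAA raised 3 of 8 (Psma5, Psma6 and Psma7; background 26.4%), GAL raised 1 (Psma5, 0.70 ± 0.15, adjusted p = 0.017; background 12.8%) and ConA 1 (Psma2, 0.82; background 16.8%), shares near or under those of all genes. CCl4 and APAP raised none of the 8. The Psma6 call with TAA (0.32) was lost without TAA mouse 1, the Psma4 call with MDA (0.28) without MDA mouse 2, 7 or 8, and the Psma5 call with GAL without either CIP mouse or GAL mouse 4 or 8. Psma1, Psma8 and Psme2b were tested with every compound and called with none against the route vehicle; against all 17 vehicles Psme2b, which lies near trace level, was called higher with ConA (1.29, adjusted p = 0.017). Against all 17 vehicles ConA raised 6 of 8 alpha genes, 3 of 7 constitutive beta genes, 5 of 6 ATPases and 10 of 14 non-ATPase genes, with 1 of the last lower, where 34.3% of all genes were called higher.

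Among the constitutive beta genes, all 7 tested rose with ANIT and 5 with MDA, with medians of 0.65 and 0.60 and backgrounds of 14% and 17.4%, and none was called with TAA or, against CIV, with ConA. Psmb1, a non-catalytic subunit, fell with APAP by 0.28 (adjusted p = 0.026, lost without APAP mouse 4 or 11) and with GAL by 0.85 (adjusted p = 0.014, lost without either CIP mouse or GAL mouse 4).

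All 6 ATPases of the 19S base, which unfold substrates, rose with ANIT and with MDA. Psmc6 gave the largest rise with both compounds among the other proteasome genes called. It ran from 15.3 through 21.6 to 37.8 CPM in Ctrl and was 49.4, 45.4, 51.4 and 44.1 CPM with ANIT (1.06 ± 0.19, adjusted p = 0.0006), above every Ctrl mouse. MDA mice ran from 29.8 through 47.4 to 69.9 CPM (1.05 ± 0.18, adjusted p = 0.00013). The 2 CIV mice were far apart for this gene, at 13.5 and 58.8 CPM, and it was not called with ConA (0.21). Psmc4 rose by 0.94 with ANIT, 0.82 with MDA and 0.77 with ConA, and 3 of the 6 ATPases rose with TAA and with CCl4. The backgrounds were 14% (ANIT), 17.4% (MDA), 26.4% (TAA) and 18% (CCl4).

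The 14 non-ATPase and associated genes rose in 12 cases with ANIT and in 12 with MDA, with medians of 0.82 and 0.63, and in 9 with TAA, 5 with CCl4, 3 with ConA, 2 with GAL and 2 with APAP. The backgrounds were 14%, 17.4%, 26.4%, 18%, 16.8%, 12.8% and 17.3%, so the last 3 counts lie near or under the share of all genes. Psmd1, a scaffold of the base, rose by 0.93 with ANIT. Psmd14, the deubiquitinase of the lid, rose with 5 compounds: 0.64 (ANIT), 0.79 (MDA), 0.73 (TAA), 1.07 (CCl4) and 0.84 (GAL). The GAL call of Psmd14 was lost without CIP mouse 8 or GAL mouse 4, 7 or 8.

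Psmd8, a lid subunit, was the member most widely raised against the route vehicle, with 6 of 7 compounds. Against all 17 vehicles Psmc6, Psmd7 and Psmd14 were also called higher with 6. Its level in Ctrl ran from 94.3 through 105 to 138 CPM. It was 228, 187, 212 and 161 CPM with ANIT (0.83 ± 0.11, adjusted p = 3.7e-05) and 288, 285, 251, 226 and 284 CPM with TAA (1.32 ± 0.10, adjusted p = 4.1e-09). All 9 of these mice stood above every control.

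MDA mice ran from 150 through 186 to 305 CPM of Psmd8 (0.90 ± 0.11) and APAP mice from 133 through 172 to 293 CPM (0.84 ± 0.14). In CCl4 mice it ran from 208 through 249 to 264 CPM against 108 and 109 CPM in CIP (1.18 ± 0.12, adjusted p = 0.0001), and in ConA mice from 258 through 333 to 360 CPM against 131 and 97.6 CPM in CIV (1.51 ± 0.23, adjusted p = 0.00097). GAL mice had 162, 118, 110 and 140 CPM (0.28, adjusted p = 0.3). APAP thus raised Psmd8 while 38 of its 43 other proteasome genes were not called. With library totals the ConA value was 0.91 (adjusted p = 0.093), and in APAP mice numbered 1 to 4 alone it was 0.85 (adjusted p = 0.12).

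Psmd5, a chaperone of base assembly that leaves the finished cap, rose with the intraperitoneal compounds and fell with ConA. It was 22.2 and 15.0 CPM in CIP, ran from 38.4 through 44.3 to 51.4 CPM with CCl4 (1.28 ± 0.19, adjusted p = 0.00072) and was 43.5, 42.0, 36.5 and 49.3 CPM with GAL (1.19 ± 0.24, adjusted p = 0.016). All 11 mice stood above every vehicle mouse, of which the highest had 33.2 CPM. In ConA mice it ran from 6.00 through 8.01 to 16.2 CPM against 23.9 and 24.6 CPM in CIV (-1.26 ± 0.35, adjusted p = 0.02). The ConA call was lost without CIV mouse 7 (adjusted p = 0.0895) or 8 (0.081), and the GAL call without CIP mouse 8 (0.087).

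Further base and lid genes were called with 2 or 3 compounds each. Psmd10 rose with ConA by 1.08 (adjusted p = 0.01, and 0.053 without CIV mouse 8) and with TAA by 0.59. Psmd3, a lid subunit, rose with ConA by 0.97 (adjusted p = 0.034), a call lost without CIV mouse 8 (0.55, adjusted p = 0.22) or ConA mouse 2, 3 or 8. With APAP, Psmd13 rose by 0.30 (lost without APAP mouse 2, 6 or 8). Small rises were those of Psmd7, by 0.43 (ANIT), 0.23 (MDA, lost without mouse 1, 2, 7 or 12) and 0.26 (TAA, lost without mouse 3), and of Psmd11 with CCl4 by 0.35 (lost without either CIP mouse).

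Among alternative activators, Psme3 (PA28 gamma, a nuclear cap) rose with ANIT (0.45), TAA (0.62), CCl4 (0.69) and GAL (0.80, lost without either CIP mouse or GAL mouse 4 or 8). Psme4 (PA200) rose with MDA (0.79) and CCl4 (1.08), the second lost without either CIP mouse or CCl4 mouse 12. Psmf1, which encodes the inhibitor PI31, fell slightly with ANIT (0.36), APAP (0.46) and CCl4 (0.36). Each of those Psmf1 calls was close to the threshold (adjusted p = 0.049, 0.043 and 0.047) and was lost on leaving out any 1 of the 4 ANIT mice, any 1 of APAP mice 2, 4, 6, 8 and 11, or either CIP mouse and CCl4 mice 1, 5, 6 and 10. With library totals Psmf1 was at 0.079 with CCl4, on the other side of 0.

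The chaperones that assemble the 20S core did not follow the subunits. None of Psmg1 to Psmg4 rose with ANIT or MDA. Psmg3 fell with MDA by 0.36 (lost without mouse 3, 8 or 12), and Psmg1 fell with TAA (0.32) and APAP (0.32, lost without mouse 1 or 11). With CCl4, 2 of 4 rose (background 18%), Psmg2 by 0.53 and Psmg4 by 0.39, the latter lost on leaving out either CIP mouse or any of 6 CCl4 mice.

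ConA lowered 3 of the 4 chaperones, where 17.3% of all genes were called lower. Psmg1 was 22.9 and 20.2 CPM in CIV and ran from 5.52 through 7.66 to 9.56 CPM in ConA mice (-1.43 ± 0.22, adjusted p = 0.00096), where every ConA mouse lay under every vehicle mouse (17.9 CPM at the lowest). Psmg2 was 12.6 and 15.7 CPM and ran from 2.87 through 4.30 to 9.31 CPM (-1.35 ± 0.40, adjusted p = 0.025; lost without CIV mouse 7 or 8, at 0.077 and 0.13). Psmg3 fell by 0.98, and Psmg4 was at 0.55. In the contrast with each other compound, Psmg1, Psmg2 and Psmd5 were lower with ConA in all 6 and Psmg3 in 5 (for TAA its adjusted p was 0.053), where 13% (ANIT), 11.9% (APAP), 15.4% (MDA), 5.94% (TAA), 10.1% (CCl4) and 8.93% (GAL) of all genes were called lower.

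**Figure D5:**
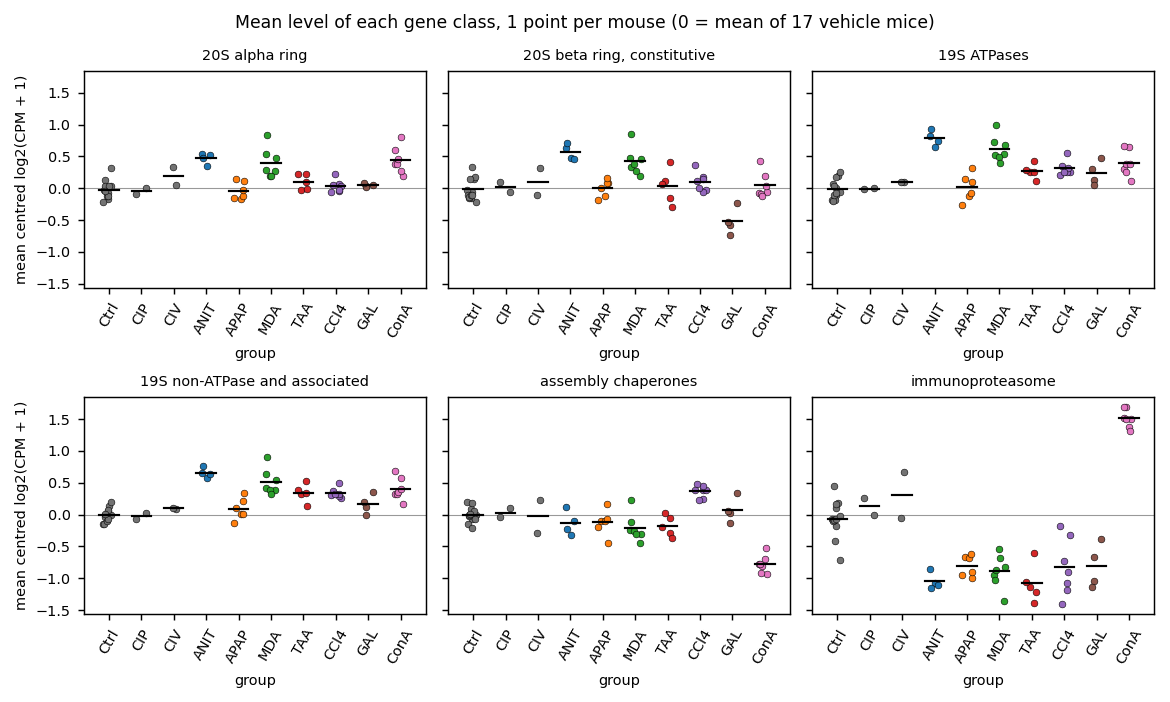
Mean over the genes of each class of log2(CPM + 1), centred on the 17 vehicle mice, with 1 point per mouse and the group mean as a bar. ANIT and MDA mice lie above 0 in the alpha, beta, ATPase and non-ATPase panels, GAL mice lie under 0 in the beta panel, ConA mice are low in the chaperone panel and high in the immunoproteasome panel.

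Compounds given by the same route were also set against each other directly, in 7 pairs. ANIT and MDA did not differ in any of 42 other proteasome genes with edgeR, where 0 had an unadjusted p under 0.05 and DESeq2 called 0. The whole table gave 0 calls among 13360 genes for that pair (0%), with 9.38% of genes at an unadjusted p under 0.05. ANIT exceeded APAP in 10 of 43 genes (2.35% of all genes were called higher), with the largest difference in Psmd11, a lid subunit, at 0.89 ± 0.22 (adjusted p = 0.041). APAP was lower than MDA in 9 of 42 (4.05%), by 0.91 in Psme4 and 0.87 in Psmc6.

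ANIT exceeded TAA in 11 of 41 genes (11.1%), and MDA differed from TAA in 8 of 42, 6 higher and 2 lower (14.3% and 15.8%). APAP and TAA differed in 0 of 43 with edgeR (2.62% of all genes were called), with 3 at an unadjusted p under 0.05 and 0 by DESeq2. These counts moved when single mice were left out (groups of up to 5 mice): the ANIT and APAP count fell to 1 without ANIT mouse 2 and to 2 without ANIT mouse 3 or 4. The ANIT and TAA count ran from 1, without ANIT mouse 3, to 22, without TAA mouse 1, and was 2 without ANIT mouse 2 or TAA mouse 6, 3 without TAA mouse 8, 4 without ANIT mouse 4, and 7 without TAA mouse 3. Between MDA and TAA it was 3 without TAA mouse 3, 6 or 8 and 4 without TAA mouse 7.

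CCl4 and GAL differed in 16 of 43 genes, 10 higher and 6 lower with CCl4, against 22.2% and 20.3% of all genes. The higher ones included the constitutive catalytic subunits Psmb5 (1.16), Psmb6 (0.94) and Psmb7 (0.80) and also Psmd8 (0.81), and the lower ones Psma5 (-0.59) and Psma6 (-0.49). With library totals the balance turned, to 5 higher and 12 lower (13.9% and 28.6% of all genes), and the median of the 43 genes moved from 0.13 to -0.12 while that of all genes moved from -0.03 to -0.26. The immunoproteasome genes were called in none of the 7 direct pairs with edgeR and TMM when every mouse was kept. Psmb8 was called lower with ANIT than APAP by DESeq2 (-0.68, adjusted p = 0.0075) and with library totals (-1.06, 0.028). Without TAA mouse 1, Psme1 was called higher with ANIT (0.67, adjusted p = 0.014) and MDA (0.63, 0.015) than with TAA. With edgeR, TMM and every mouse, the largest direct difference of the 5 genes was -0.87 for Psmb9 between ANIT and APAP, and a p that misses the threshold does not show that the compounds act alike.

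Of 30 partners and regulators of the proteasome fixed as a list, 29 were tested. ANIT raised 13 and lowered none (backgrounds 14% and 14.2%), and MDA raised 13 and lowered 3 (17.4% and 16.4%). TAA gave 14 and 2 (26.4% and 24%), CCl4 13 and 1 (18% and 15.6%) and GAL 9 and 3 (12.8% and 15.7%). ConA gave 7 and 2 (16.8% and 17.3%) and APAP 5 and 2 (17.3% and 14.6%), the APAP counts being near or under the shares of all genes. Adrm1, a ubiquitin receptor of the cap, rose with ANIT (1.03), MDA (0.56), TAA (0.54) and CCl4 (0.55). Txnl1, a cap-bound thioredoxin, rose with ANIT (0.75), MDA (0.61), TAA (0.57), CCl4 (0.56) and GAL (0.81). Vcp, the segregase that hands over substrates, rose with ANIT (0.62), MDA (0.41) and TAA (0.25).

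The transcription factor Nfe2l1, which drives proteasome genes when proteasome activity is short, was not called with ANIT (0.17) or MDA (-0.11) and fell with TAA by 0.95 and with ConA by 0.94. Its levels were 16.6, 33.9, 32.4, 31.6 and 26.1 CPM with TAA, all under the 47.4 to 69.3 CPM of the Ctrl mice. Nfe2l2, the oxidative stress factor that acts on the antioxidant response element, rose with MDA (0.37), TAA (0.90), GAL (1.78) and ConA (0.90) and was at 0.22 with ANIT. Of the genes that process Nfe2l1, Ddi2 rose with ANIT (0.39) and fell with TAA (0.79), and Ngly1 was called with no compound. Pomp, which completes the core, was called with none either, and Akirin2, which carries proteasomes into the nucleus, rose with TAA (0.54), CCl4 (0.69) and GAL (0.83). mRNA levels of these factors do not measure their activity.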

How the data were processed

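Total RNA of liver from 57 mice was sequenced single-end from TruSeq Stranded mRNA libraries, per the labels' protocols. The values deposited are estimated counts for 54307 versioned Ensembl IDs, with a column for each mouse. The submitters' processing notes name Salmon 1.6.0, R 4.1.3 and GRCm39 without giving their roles; the counting settings are not given in the sources used here. The deposited estimated counts look corrected for transcript length: over 4208 single-transcript genes with at least 10 mice above 0 and at least 10 at 0, the smallest value fell with length (Spearman's rho -0.944 across genes). That restriction was made after a first value of -0.607 over 6652 genes with at least 10 mice above 0 had been seen, because the smallest value of a well expressed gene is more than 1 read. Counting intervals per read were therefore not computed.

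IDs were matched to GENCODE M21 symbols (51482 matched). Counts were rounded and tested with edgeR 4.0.16 (limma 3.58.1, R 4.3.3; files read with the data.table package, version 1.17.8) by quasi-likelihood, two-sided, with TMM and filterByExpr, 1 fit per pair of groups, without covariates. Standard errors come from the F statistic. DESeq2 1.42.0, library totals, other filters, all 17 vehicles, a replicate block, ranges of mouse numbers and leaving out single mice served as alternatives. Mean levels use log2(CPM + 1) where stated. The code was tested on simulated data. The members, gene lists and comparisons were chosen with earlier results of these data known. Named genes are the 5 immunoproteasome genes, Psmb5, Psmb6 and Psmb7, the 3 highest and 3 lowest called per compound, those called in 1 direction with 6 or 7 compounds or with none, untested members, and fixed regulators and interferon genes. Further genes named within a class or list were chosen after their values were seen. Of the genes that this rule names, 1 is not reported here. The mice are separate animals.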

Additional observations from a re-analysis of the deposited data

Results flagged for a closer look

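Psmb9 in APAP mouse 1 stood apart from its group, at 1.75 on the log2(CPM + 1) scale where the other 5 APAP mice lay between 2.93 and 3.24. The same mouse was low in the log2 ratio of Psmb9 to Psmb6, at -6.48 against -5.12 to -4.69 in the others. Psmb6 in ConA mouse 11 was high, at 8.19 against 7.49 to 7.69 in the other 6. These were 3 of 84 groups of values checked, and chance marks about 1 group in 20.

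In direct tests between compounds of the same route, other proteasome genes were called in 5 of 7 pairs. Called were 10 genes higher with ANIT than APAP (2.35% of all genes were), 11 higher with ANIT than TAA (11.1%) and 9 lower with APAP than MDA (4.05%). With library totals these counts were 1, 3 (1 higher and 2 lower) and 1, and with TMM the ANIT and APAP count fell to 1 without ANIT mouse 2 and the ANIT and TAA count to 1 without ANIT mouse 3. MDA against TAA gave 8 of 42, 6 higher and 2 lower (14.3% and 15.8% of all genes), and CCl4 against GAL 16 of 43, 10 higher and 6 lower (22.2% and 20.3%), shares near or under those of all genes. With library totals CCl4 against GAL gave 5 higher and 12 lower (13.9% and 28.6%). The effect of ConA on immunoproteasome genes differed from that of ANIT in 4 genes, APAP in 5, MDA in 4, TAA in 5, CCl4 in 5 and GAL in 5, where 8.17%, 4.73%, 8.8%, 3.12%, 6.69% and 7.84% of all genes were called higher with ConA. With library totals these counts were 3, 3, 3, 3, 1 and 1.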

How the results depend on the processing

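Counts below are of other proteasome genes called higher and lower. Shares of all genes called are given above for each compound against its vehicle with library totals and for all 17 vehicles. With library totals they are also given for CCl4 against GAL. No such share is given for the other settings, direct pairs or ConA contrasts below. A moved count there cannot be told apart from a change in the calls of all genes. With library totals in place of TMM, ANIT gave 18 higher, APAP 1 lower, TAA 0 lower, CCl4 31 and 0, GAL 22 and 0, and ConA 0 higher; the direct pairs gave 1 (ANIT and APAP), 3 (ANIT and TAA), 1 (APAP and MDA) and 4 (MDA and TAA), and the immunoproteasome contrasts of ConA gave 3 (APAP), 3 (TAA), 1 (CCl4) and 1 (GAL). With all 17 vehicles, ANIT gave 0 lower, MDA 2 lower, TAA 2 lower, CCl4 4 lower, GAL 11 and 12, and ConA 28 higher. Both changes together, chosen after seeing the data as were the library-total, DESeq2 and leave-one-out fits of direct pairs, gave ANIT 18 and 2, APAP 1 lower, MDA 3 lower, CCl4 38 and 0, GAL 33 and 0, and ConA 3 and 13. All genes shifted there too. The medians of the 43 genes and of all genes were then 0.68 and 0.52 (CCl4), 0.79 and 0.84 (GAL), and -0.29 and -0.61 (ConA). They were 0.37 and -0.26 with ANIT, 0.40 and -0.04 with MDA, 0.21 and 0.20 with APAP, and 0.16 and 0.02 with TAA. Size factors of DESeq2 within edgeR gave ANIT 0 lower, TAA 2 lower and CCl4 2 lower. DESeq2 itself gave MDA, TAA and CCl4 2 lower each, GAL 8 and 7, and 22 (ANIT and APAP), 22 (ANIT and TAA) and 15 (APAP and MDA) in direct pairs. Without a filter on low counts, ANIT, MDA and CCl4 gave 0 lower each, APAP 1 higher, GAL 2 higher and ConA 3 higher; with a mean CPM of at least 5, ANIT, MDA and CCl4 gave 2 lower each and GAL 9 higher. In 1 fit over 57 mice, ANIT gave 0 lower, CCl4 5 and 0, and GAL 4 lower. Mice numbered 1 to 4 alone gave APAP 0 and 0, MDA 17 and 0, and TAA 7 and 0. Higher numbers alone gave APAP 1 and 1, MDA 16 higher, TAA 8 and 3, CCl4 0 lower, GAL 5 lower, and ConA 2 and 1. With the range as a covariate, MDA gave 2 lower and TAA 3 lower. Fewer mice enter the fits within a range; for the other settings the cause was not tested.

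Where a treated and a control group share 3 or more numbers, the correlations of same-numbered mice's deviations ran from -0.013 to 0.089 (ANIT), 0.0047 to 0.169 (APAP), -0.139 to 0.110 (MDA) and -0.0039 to 0.295 (TAA, 3 of 4 above 0.1). Not every pair was above 0.1, so the mice were taken to share only a number, and so were those of GAL and CIP (0.021 and 0.043). With that number as a replicate block, ANIT gave 19 and 0, APAP 0 and 0, MDA 24 and 0, TAA 9 and 0, and GAL 1 and 3. Immunoproteasome genes called lower were then 1 (ANIT), 0 (APAP), 3 (MDA), 4 (TAA) and 5 (GAL), where they were 4, 5, 5, 5 and 2 without it. CCl4 with CIP, and ConA with CIV, share 1 number each, so no block could be fitted there.

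Leaving out each treated mouse in turn, and each CIP or CIV mouse (Ctrl mice were not left out), gave, for higher and lower, 29 to 31 and 0 to 1 (ANIT), 1 to 2 and 0 to 2 (APAP), 27 to 31 and 0 to 3 (MDA), 12 to 19 and 1 to 2 (TAA), 3 to 13 and 0 to 2 (CCl4), 0 to 6 and 0 to 8 (GAL), and 3 to 6 and 2 to 4 (ConA). Direct pairs, with single mice of groups of up to 5 left out, ranged over 1 to 11 (ANIT and APAP), 1 to 22 (ANIT and TAA), 3 to 12 (MDA and TAA), 12 to 19 (CCl4 and GAL) and 0 to 0 (ANIT and MDA, APAP and TAA). By mouse left out, CCl4 gave 3 and 0 without CIP mouse 8 and 8 and 0 without CIP mouse 7. GAL gave 0 and 0 without CIP mouse 8, 2 and 0 without CIP mouse 7, 6 and 8 without GAL mouse 2, 1 and 1 without GAL mouse 4 or 8, and 3 and 2 without GAL mouse 7. ConA gave 3 and 2 without CIV mouse 8, 5 and 2 without CIV mouse 7, and 3 and 3 without ConA mouse 8. APAP gave 1 and 2 without mouse 2, 6 or 8, 2 and 0 without mouse 11, 2 and 1 without mouse 4, and 2 and 2 without mouse 1. MDA gave 27 and 3 without mouse 2, 31 and 0 without mouse 3, and 29 and 0 without mouse 12.

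Signs turned in 6 values of single genes: Psmf1 with CCl4 (0.079 with library totals, 0.050 with all 17 vehicles and library totals), Psmb8 (0.14) and Psmb9 (0.10) with GAL under all 17 vehicles and library totals, and Psme1 (-0.26) and Psme2 (-0.11) with ConA under library totals. The 2 CIP and 2 CIV mice, the scaling, and the unequal Ctrl mice limit what these data can show, and values of members near trace level (Psma8, Psme2b, Psmb11) are uncertain.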
